A study of Mus musculus with 18 samples.

Results

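The collagen genes were taken as every listed gene whose symbol is Col, digits, a and digits, such as Col1a1, with nothing after it. This gave 38 of the 20207 genes listed, and 28 of the 38 had at least 1 read in each of the 18 samples and were tested. Messenger RNA was measured by sequencing in NIH3T3 cells, a mouse fibroblast line. According to the study's methods, the cells of all groups stably expressed a destabilizing domain fused to superfolder GFP (DD-GFP), had been sorted for high GFP, and were kept in Shield-1 (S1), the ligand that holds the domain folded. The 6 groups of 3 samples were unstressed cells at 0 min (control), cells under heat stress (HS) for 45 or 135 min, and cells given tunicamycin (Tu), an inhibitor of N-linked glycosylation that causes proteins to misfold in the endoplasmic reticulum (ER), for 45, 135 or 405 min. The labels number the replicates but do not state that they came from separate cultures, so the p-values measure the spread between these samples, which may be technical.

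Collagens are among the main secreted products of fibroblasts. Their chains are translated into the ER, where prolines and lysines are hydroxylated, partner chains wind into a helix with the help of the collagen-specific chaperone Hsp47 (gene Serpinh1), and the rigid procollagen leaves in enlarged COPII carriers before its propeptides are cleaved and the fibrils are crosslinked. Heat stress activates heat shock factors in the cytosol and nucleus, whereas tunicamycin activates the unfolded protein response of the ER, so both perturb the folding environment of a cell, the second in the compartment through which collagens pass.

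The libraries held from 33415592 to 66478268 reads on genes. Hspa1b, a heat-inducible Hsp70, stood at 5.60 ± 0.460 CPM in the control and 849 ± 515 CPM at 135 min of HS (SD, n = 3, counts scaled to library size by TMM within the comparison; edgeR log2 fold change 7.24, adjusted p = 0.00580). Hspa5, the ER chaperone BiP, rose from 690 ± 36.4 to 9131 ± 220 CPM at 405 min of Tu (SD, n = 3, edgeR adjusted p = 4.64e-06). At 45 min of Tu, Hspa5 stood at 1013 ± 36.1 against 741 ± 43.7 CPM without passing the threshold (SD, n = 3, edgeR adjusted p = 0.0709). At 135 min of Tu, all 3 samples had less Hspa5 than all 3 controls, 432 ± 76.3 against 713 ± 42.1 CPM (SD, n = 3, edgeR adjusted p = 0.135). The fibroblast markers Vim (1637 to 3689 RPKM, reads per kilobase of gene scaled to library size) and Fn1 (791 to 1610 RPKM) were high in every sample, Lum was at most 0.804 RPKM, and Epcam, Ptprc, Pecam1, Acan and Myod1, which define epithelial, leukocyte, endothelial, cartilage and muscle cells, did not exceed 0.0565 RPKM in any sample. Other markers of those lists were present, with Cd68 of the leukocyte list at 3.72 to 7.61 RPKM, Sox9 of the cartilage list at 14.0 to 128 RPKM, and Krt14 and Des at most 0.365 and 0.390 RPKM. Libraries of 1 group differed in how gene levels followed transcript GC content: across genes, the Spearman correlation of a library's deviation from the mean of all libraries with GC ran from -0.60 to 0.59, and HS 45 min replicate 3 (-0.45) stood apart from the other two HS 45 min libraries (0.59 and 0.56). Collagen transcripts had a median GC of 55.95%, against 49.68% over all genes with a value. The study's methods describe more than one route of library preparation and do not assign samples to them, so no term for it could be fitted, and its part in this split and in the fold changes was not tested.

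In unstressed cells the 2 chains of type I collagen, the main fibril of connective tissue, were far above all other members. Col1a1, on chromosome 11 of mm9 (94797584 to 94813170), had 1996, 1274 and 1344 RPKM in the 3 controls, and Col1a2, on chromosome 6 (4455697 to 4491543), had 1207, 1029 and 1165 RPKM. The 2 ranges did not overlap, and Col1a1 ranked between 2 and 4 among all genes by reads in the controls. Next came the chains of type VI collagen, which forms beaded microfibrils near the cell surface, with 250, 204 and 226 RPKM for Col6a1 and 169, 134 and 141 RPKM for Col6a2. Col3a1, the chain of the type III fibril, had 117, 108 and 143 RPKM, which overlapped Col6a2. Col5a2, a chain of the type V collagen that lies inside type I fibrils, had 64.0, 93.4 and 100.2 RPKM. Col5a1, its partner, stood between 48.4 and 56.3 RPKM and overlapped Col4a1 of the basement membrane (53.3 to 54.5 RPKM). In all, 16 of the 28 tested members had a control mean of at least 1 RPKM and 12 were lower, down to Col4a4 at 0.0121 RPKM. Levels of a few reads per sample in members such as Col14a1 (7 to 11 reads in the controls), Col22a1 (9 to 11), Col15a1 (10 to 16) and Col4a4 (2 to 8) carry a large counting error.

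The 10 members without a read in every sample were Col2a1, Col4a3, Col8a2, Col9a1, Col9a2, Col13a1, Col19a1, Col23a1, Col24a1 and Col25a1. Col13a1, a membrane-spanning collagen, was listed at 0 in all 18 samples, and none of the 10 exceeded 20 reads in any. The highest was Col2a1, the main collagen of cartilage, with 1, 4 and 2 reads in the controls, 8, 20 and 20 at 135 min of HS and 1, 2 and 0 at 405 min of Tu. Col8a2 had 1, 2 and 2 reads in the controls and 3, 12 and 12 at 135 min of HS. Both were highest in HS 135 min replicates 2 and 3, and neither was tested.

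Taken over all 38 members, collagen reads were 2.40%, 1.86% and 2.01% of the reads counted on genes in the controls. They were 4.38%, 5.04% and 2.71% at 45 min of HS and 3.10%, 4.91% and 4.26% at 135 min of HS, so every heated sample lay above every control. Under Tu they were 1.92%, 2.32% and 2.74% at 45 min, 3.30%, 2.64% and 2.55% at 135 min, and 1.19%, 1.17% and 0.967% at 405 min. The samples at 135 min of Tu lay above and those at 405 min below all controls, while those at 45 min overlapped them. Within groups, libraries that differed in their correlation with GC content also differed in share. Control replicate 1 (correlation 0.05) had 2.40%, against 1.86% and 2.01% in the other controls (-0.54 in both). HS 45 min replicate 3 (-0.45) had 2.71%, against 4.38% and 5.04% (0.59 and 0.56). At 405 min of Tu, by contrast, the largest share was in the library with the lowest correlation (-0.24). The part of GC content in these shares was not tested. Col1a1 and Col1a2 alone took 1.58% ± 0.273 of the reads in the control and 0.766% ± 0.0901 at 405 min of Tu (SD, n = 3). By rank of reads, Col1a1 was first of all genes in every sample at 45 min of HS and between 14 and 19 at 405 min of Tu.

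**Figure D1:**
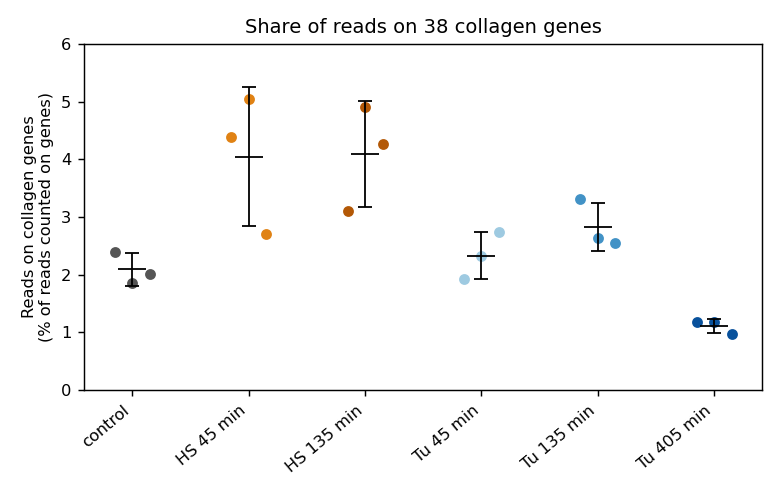
Reads on the 38 collagen genes as a percentage of all reads counted on genes (vertical axis) in each of the 6 groups (horizontal axis); points are the 3 samples, and bars show the mean and SD. Heated samples lie between 2.71% and 5.04%, above the controls at 1.86% to 2.40%, and the samples at 405 min of Tu lie between 0.967% and 1.19%.

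The sequences upstream of 4 members are shown. Col5a1 and Col3a1 had the largest rises at 135 min of HS among members with a control mean of at least 1 RPKM. Col27a1 was called higher at 135 min of HS and at 45 and 135 min of Tu, though not at 405 min. Col1a2 is the most abundant with a window at hand. Promoter windows of RefSeq on GRCm38.p6, from 250 bases before to 50 after each annotated start, were found for 30 of the 38 members, in 33 windows, and the bases before the start are printed 5′ to 3′. Capitals mark, on either strand, the CCAAT box (the letters of its name), the TATA box TATAAA and the GC box GGGCGG.
Col1a2, chr6:4505368-4505617, plus strand: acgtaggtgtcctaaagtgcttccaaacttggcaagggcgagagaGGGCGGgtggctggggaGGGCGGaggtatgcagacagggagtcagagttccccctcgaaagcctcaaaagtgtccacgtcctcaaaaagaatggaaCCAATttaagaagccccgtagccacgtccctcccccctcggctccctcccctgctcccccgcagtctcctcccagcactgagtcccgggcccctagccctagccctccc
Col3a1, chr1:45311288-45311537, plus strand: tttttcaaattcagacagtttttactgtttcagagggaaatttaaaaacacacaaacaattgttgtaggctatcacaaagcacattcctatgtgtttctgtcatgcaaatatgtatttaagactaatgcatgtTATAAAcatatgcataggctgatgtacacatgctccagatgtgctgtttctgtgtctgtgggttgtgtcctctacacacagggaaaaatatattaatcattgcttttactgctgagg
Col5a1, chr2:27886175-27886424, plus strand: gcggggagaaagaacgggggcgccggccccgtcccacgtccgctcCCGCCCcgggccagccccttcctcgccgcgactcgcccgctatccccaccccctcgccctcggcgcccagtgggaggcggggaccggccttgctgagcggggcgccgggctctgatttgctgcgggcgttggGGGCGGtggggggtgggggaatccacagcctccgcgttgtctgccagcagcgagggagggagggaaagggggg
Col27a1, chr4:63215162-63215411, plus strand: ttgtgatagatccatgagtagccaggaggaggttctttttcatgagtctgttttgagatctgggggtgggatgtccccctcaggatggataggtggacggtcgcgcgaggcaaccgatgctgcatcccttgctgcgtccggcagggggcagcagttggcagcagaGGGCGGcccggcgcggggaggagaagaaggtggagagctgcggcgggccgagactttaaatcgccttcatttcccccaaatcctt
Col1a2 holds CCAAT with its first base 109 bases before the start and GGGCGG in 2 places, Col3a1 holds TATAAA with its first base 117 bases before the start, and Col5a1 and Col27a1 hold only GGGCGG. Over the 33 windows, GGGCGG, the GC box, was in 60.6%, against 35.7% of all 32851 windows, CCAAT in 36.4% against 37.4%, and TATAAA in 15.2% against 13.6%. The pair GAANNTTC of inverted heat shock element units was in 3.03% of the collagen windows (Col4a5) against 7.86% of all, and the pair TTCNNGAA was in 3.03% (Col17a1) against 8.52%. Runs of 3 alternating units, which contain these pairs, were in 0 of 33 against 0.603%. The ER stress element, the ER stress element II, the letters TGACGTGG of the unfolded protein response element and TTGCATCA of the ATF4 element were each in 0 of 33, against 0.119%, 0.0365%, 0.676% and 0.895% of all windows. GC boxes and heat shock units can overlap other letters searched, and a match or its lack says only which letters stand in these windows.

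At 135 min of HS, 13 of the 28 tested collagen genes rose and none fell, against 4.75% of all 12731 tested genes called higher and 2.64% called lower (edgeR quasi-likelihood test, Benjamini-Hochberg adjusted p under 0.05). The members' median log2 fold change was 1.18, against -0.02 over all genes. In 23 of the 28, every heated sample exceeded every control, as it did in 18.1% of all genes. By class, 6 of 9 fibril-forming, 2 of 5 fibril-associated, 1 of 5 type IV and 1 of 2 type VI members rose, with Col10a1, Col15a1 and Col28a1 from the other classes. Sox9, a transcription factor of cartilage that also is known to drive collagen genes, rose beside them by 2.06 on the log2 scale (SE 0.33, edgeR adjusted p = 0.0199). It was 1 of 3 cartilage markers followed, of which 2 were tested and 1 rose. Comp, the other marker tested, was not called (log2 fold change 1.04, SE 0.46). Comp did not exceed 0.197 RPKM and Acan did not exceed 0.0154 RPKM in any sample. The summed level of the 3, 74.0 to 123 RPKM in these samples against 23.5 to 36.1 RPKM in the controls, was thus almost all Sox9. The part of Sox9 and of these markers in the collagen changes was not tested.

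Among the fibril-forming chains, Col5a1 changed the most, from 56.3, 48.4 and 49.7 RPKM in the controls to 127, 205 and 168 RPKM at 135 min of HS. All heated samples lay above all controls, and the log2 fold change was 1.91 (SE 0.30, edgeR adjusted p = 0.0197). Col3a1, on chromosome 1 (45368383 to 45406550), went from 117, 108 and 143 RPKM to 276, 434 and 383 RPKM, a log2 fold change of 1.79 (SE 0.30, edgeR adjusted p = 0.0204). Col11a1, a chain of type XI collagen that seeds thin fibrils, had 2.59, 3.31 and 4.05 RPKM in the controls and 7.60, 11.9 and 9.65 RPKM after heat. Its partner Col11a2 had 0.444, 0.361 and 0.269 RPKM in the controls and 0.758, 1.62 and 1.06 RPKM after heat, the widest spread of this class (log2 fold change 1.91, SE 0.42, edgeR adjusted p = 0.0375). Col27a1, a minor fibrillar chain, had 2.21, 1.96 and 2.07 RPKM against 4.20, 5.66 and 4.24 RPKM. In each of these genes the heated replicate 2 was the highest of the 3.

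The type I chains did not pass the threshold. Col1a1 had 2261, 3854 and 3095 RPKM at 135 min of HS, above all 3 controls, with a log2 fold change of 1.21 (SE 0.37, edgeR adjusted p = 0.0801). Col1a2 had 1537, 2134 and 2044 RPKM, with a log2 fold change of 0.96 (SE 0.29, edgeR adjusted p = 0.0798). Col5a2 had 113, 180 and 167 RPKM and Col6a1 had 330, 497 and 407 RPKM, again above all controls without passing (log2 fold changes 1.06 and 1.07). Groups that do not overlap were thus more frequent among the members than calls. Col6a2, at 231, 329 and 277 RPKM against 169, 134 and 141 RPKM, lay just inside the threshold (log2 fold change 1.13, SE 0.28, edgeR adjusted p = 0.0490).

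Outside the fibrillar class, Col4a1, which with Col4a2 makes the network of basement membranes, had 81.1, 134 and 105 RPKM after heat against 54.5, 53.5 and 53.3 RPKM in the controls and rose by 1.21 on the log2 scale (SE 0.29, edgeR adjusted p = 0.0457). Col15a1, a basement-membrane collagen whose end fragment resembles endostatin, had 16, 16 and 10 reads in the controls and 41, 71 and 62 at 135 min of HS (log2 fold change 1.85, SE 0.43). After 45 min of HS it had 12, 18 and 8 reads and overlapped the controls. Col14a1, a collagen that sits on the surface of fibrils, had 7, 9 and 11 reads against 30, 27 and 37 (log2 fold change 1.54, SE 0.34, edgeR adjusted p = 0.0389). Col28a1 had 24, 30 and 22 reads against 71, 78 and 84 (log2 fold change 1.39, SE 0.30). Col10a1 also passed, with 15 to 29 reads in the controls and 74 to 104 after heat, but it overlaps Nt5dc1 and its reads cannot be told apart from that gene's here. Col8a1, Col12a1 and Col4a4 had log2 fold changes of -0.07, 0.04 and 0.04.

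These calls depended on single libraries, and each of the 13 held in 1 to 3 of the 6 fits that left out a sample. Without control replicate 2, control replicate 3 or HS 135 min replicate 3, 0 members were called higher, in fits that called 0.0943%, 0.0785% and 0.0864% of all genes higher. Without control replicate 1, 2 were called (2.75% of all genes), and without HS 135 min replicate 1, 22 were (12.1%). Over all genes, the log2 fold change rose with transcript GC content (Spearman correlation 0.39, across genes). After an offset for GC content in each library, 20 members were called higher, against 10.4% of all genes, and the members' median log2 fold change was 0.92.

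**Figure D2:**
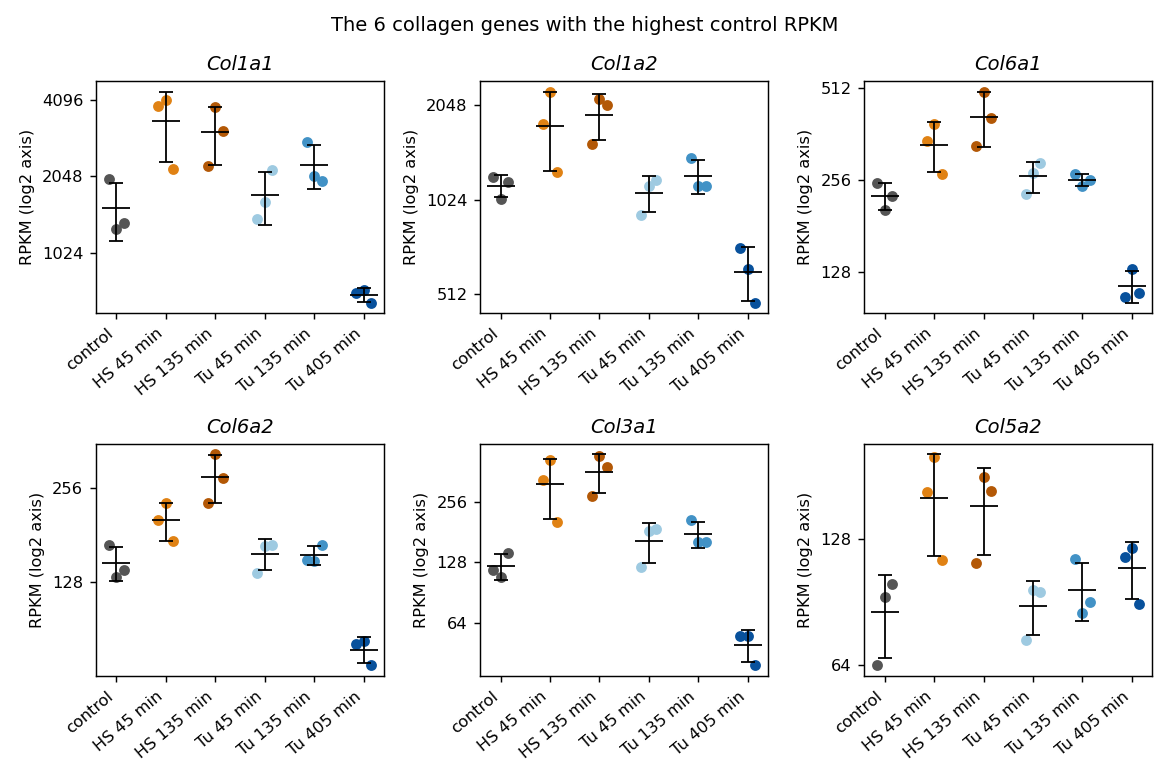
RPKM (vertical axis, log2 scale) of the 6 collagen genes with the highest control level, 1 panel a gene, in the 6 groups (horizontal axis); points are samples, and bars show the mean and SD of 3. Col1a1 runs from 1274 to 1996 in the control, from 2261 to 3854 at 135 min of HS and from 649 to 732 at 405 min of Tu, whereas Col5a2 at 405 min of Tu (89.6 to 122) overlaps its control range on this scale.

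After 45 min of HS, 0 of the 28 members were called, as were 0% of all genes in either direction (edgeR). Hspa1b itself was not called, at 178 ± 119 against 5.61 ± 0.46 CPM (SD, n = 3, log2 fold change 4.99, edgeR adjusted p = 0.192). The lack of calls therefore does not show that levels were unchanged. At an unadjusted p under 0.05, 23 were higher and 0 lower, against 12.3% of all genes higher, and DESeq2 called 11 higher, against 3.18%. The median log2 fold change of the members was 1.13, against -0.03 over all genes, and in 19 of the 28 every heated sample exceeded every control, against 12.5% of all genes. Col1a1 had 3873, 4096 and 2190 RPKM and Col3a1 had 332, 415 and 204 RPKM, so replicate 3 lay closest to the controls in both. Without that replicate, 24 members were called higher, against 21.5% of all genes. This was the library whose levels went against those of the other libraries of its group in GC content. Across all genes the log2 fold change followed GC with a Spearman correlation of 0.55. After the GC offset the members' median log2 fold change was 0.61. That fit called 0 members and 0 of all genes in either direction, the same counts as without the offset. The part of GC content in the collagen values cannot be told apart from heat with these libraries.

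Early in Tu treatment, at 45 min, 3 of the 28 members rose and 0 fell, against 4.01% of all genes higher and 2.17% lower (edgeR), and the members' median log2 fold change was 0.36 against -0.0037 over all genes. In 10 members every treated sample exceeded every control, against 18.2% of all genes. Col27a1 had 3.81, 4.38 and 4.59 RPKM against 2.21, 1.96 and 2.07 RPKM in the controls, a gap wider than the spread in either group (log2 fold change 0.96, SE 0.15, edgeR adjusted p = 0.0143). Col28a1 had 76, 96 and 55 reads against 24, 30 and 22 (log2 fold change 1.14, SE 0.21, edgeR adjusted p = 0.0232). Col22a1, a collagen of tissue junctions, had 37, 55 and 43 reads against 10, 11 and 9 (log2 fold change 1.75, SE 0.29, edgeR adjusted p = 0.0184). The abundant chains stayed near the controls: Col1a1 had 1384, 1622 and 2178 RPKM, Col1a2 had 915, 1135 and 1182 RPKM, Col6a1 had 229, 269 and 290 RPKM and Col6a2 had 137, 167 and 169 RPKM. Each of these overlapped its control range, and their log2 fold changes lay between -0.15 and 0.13. The calls of Col27a1, Col22a1 and Col28a1 held in 3, 2 and 1 of the 6 fits that left out a sample. Without control replicate 2, control replicate 3 or Tu 45 min replicate 2, 0 members were called, against 0.66%, 0.621% and 0.432% of all genes.

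At 135 min of Tu, Col27a1 alone of the 28 was called higher and 0 were called lower, against 0.126% and 0.00785% of all genes (edgeR). It had 5.76, 4.65 and 5.42 RPKM, its highest group mean in the series (5.28 ± 0.570 RPKM, SD, n = 3), with a log2 fold change of 1.40 (SE 0.19, edgeR adjusted p = 0.0457). Same-numbered samples varied together in this comparison (correlations 0.29, 0.24 and 0.20), though the labels state no pairing. Replicate 1 also stood apart in its correlation with GC content, at 0.05 against -0.54 and -0.54 in the controls and 0.52 against -0.34 and -0.31 under Tu. Pairing and a shared GC pattern cannot be told apart here. With the replicate as a block, the edgeR adjusted p of Col27a1 was 0.0695 and 0 members were called, as were 0% of all genes. The call of Col27a1 held in only 1 of the 6 fits that left out a sample, that without Tu 135 min replicate 1. In 16 of the 28 members every treated sample exceeded every control, against 14.7% of all genes, and the median log2 fold change was 0.57 against -0.0029 over all genes. Col22a1 (32, 28 and 23 reads) and Col28a1 (76, 42 and 62 reads) had log2 fold changes of 1.57 and 1.40 without passing, and Col1a1, at 2803, 2056 and 1972 RPKM, had 0.63. Replicate 1 was the highest of the 3 in Col1a1, Col1a2 and Col3a1.

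At 405 min of Tu, 13 of the 28 members fell and 2 rose, against 23.5% of all genes called lower and 23.3% called higher (edgeR). The members' median log2 fold change was -0.32, against -0.01 over all genes. In 14 members every treated sample lay below every control, against 28.7% of all genes. The members that fell included 4 of 9 fibril-forming, both type VI and 2 of 5 type IV chains. The fibroblast markers moved in the same samples: 5 of the 8 tested fell and none rose, among them Pdgfrb (log2 fold change -2.14), and their summed level was 3181 to 3374 RPKM, against 6353 to 6804 RPKM in the controls. In bulk samples, fewer collagen-producing cells and less collagen RNA per cell cannot be told apart.

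Both type I chains fell. Col1a1 had 708, 732 and 649 RPKM against 1996, 1274 and 1344 RPKM in the controls, a 2.09-fold lower level (log2 fold change -1.07, SE 0.22, edgeR adjusted p = 0.00545). Col1a2 had 715, 615 and 480 RPKM against 1207, 1029 and 1165 RPKM (log2 fold change -0.83, SE 0.18, edgeR adjusted p = 0.00659). Col3a1 fell further, to 54.8, 54.7 and 39.0 RPKM, 2.33-fold below the control (log2 fold change -1.22, SE 0.17, edgeR adjusted p = 0.000871). No treated sample of the 3 genes reached the lowest control. Col6a1, at 106, 131 and 109 RPKM, and Col6a2, at 81.3, 83.4 and 69.5 RPKM, had log2 fold changes of -0.89 (SE 0.16) and -0.84 (SE 0.16), a difference between the partner chains smaller than either error. Col4a1 had 26.6, 25.6 and 21.6 RPKM, 2.06-fold below controls that spanned only 53.3 to 54.5 RPKM, and its neighbour Col4a2 had 25.2, 26.2 and 21.4 RPKM against 44.8, 40.3 and 37.1 RPKM, 1.59-fold lower.

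The largest falls were in less abundant members. Col17a1, a membrane-spanning collagen of epithelial attachment sites, had 66, 93 and 72 reads in the controls and 37, 14 and 25 at 405 min of Tu, a 3.78-fold lower level (log2 fold change -1.92, SE 0.30, edgeR adjusted p = 0.00126). Col12a1, which decorates type I fibrils, had 0.897, 0.881 and 0.832 RPKM against 3.11, 2.86 and 2.995 RPKM (log2 fold change -1.69, SE 0.13, edgeR adjusted p = 4.5e-05), the smallest relative error among the members that fell. Col8a1, a short-chain collagen of vessel walls, had 6.60, 5.59 and 5.07 RPKM against 12.1, 18.4 and 17.3 RPKM (log2 fold change -1.38, SE 0.16). Col15a1 had 6, 3 and 9 reads against 16, 16 and 10 (log2 fold change -1.52, SE 0.44, edgeR adjusted p = 0.0217), and Col11a1 had 1.64, 1.83 and 1.35 RPKM against 2.59, 3.31 and 4.05 RPKM (log2 fold change -0.95, SE 0.18). The calls of Col15a1 and Col7a1 held in 4 of the 6 fits that left out a sample, and those of the other 11 in all 6.

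Not every fibrillar chain went down. Col5a2 had 116, 122 and 89.6 RPKM against 64.0, 93.4 and 100.2 RPKM (log2 fold change 0.44, SE 0.18, edgeR adjusted p = 0.0814), overlapping on this scale but not in counts scaled by TMM. It lies next to Col3a1 on chromosome 1 (45431176 to 45560127). Col5a1 had 50.6, 57.5 and 50.3 RPKM, inside or just above its control range (log2 fold change 0.12, SE 0.14). Col27a1 was back at 1.65, 2.09 and 1.80 RPKM (log2 fold change -0.09, SE 0.16). The 2 members that rose were both scarce and fibril-associated: Col14a1 had 54, 23 and 41 reads against 7, 9 and 11 (log2 fold change 1.79, SE 0.37, edgeR adjusted p = 0.00521), and Col22a1 had 26, 29 and 28 reads against 10, 11 and 9 (log2 fold change 1.15, SE 0.27, edgeR adjusted p = 0.00922). Without control replicate 1, 5 members were called higher, against 31.6% of all genes.

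**Figure D3:**
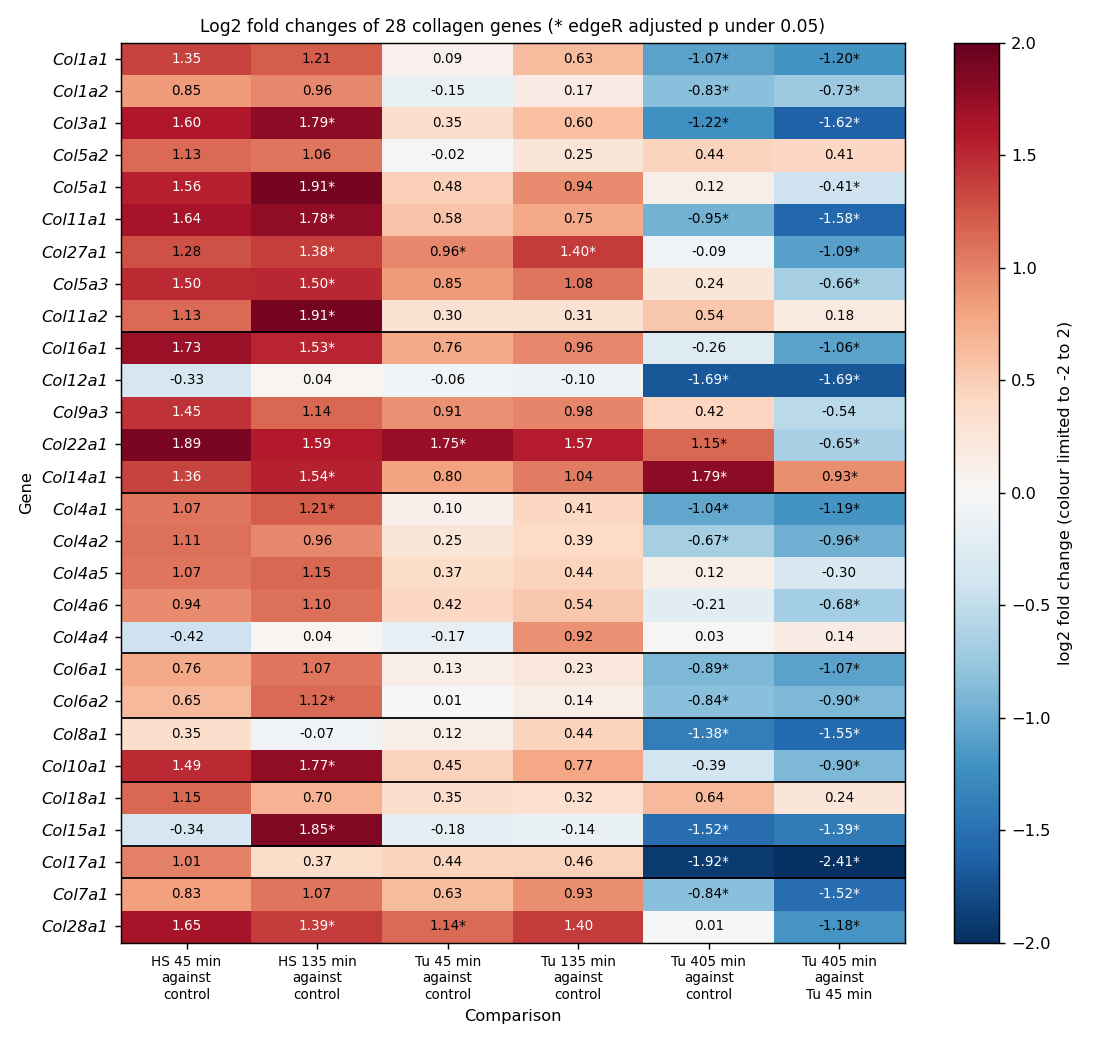
Log2 fold changes (colour and printed value) of the 28 tested collagen genes (rows, grouped by class and ordered by control RPKM within a class) in 6 comparisons (columns); stars mark an edgeR adjusted p under 0.05. The HS columns are mostly above 0, with 13 stars at 135 min, and the 405 min Tu column has 13 stars below 0 and 2 above.

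Of the 13 members that fell at 405 min of Tu, 5 were among the 13 called higher at 135 min of HS. These 5 were Col3a1, Col4a1, Col6a2, Col11a1 and Col15a1. The 2 stresses were given to separate samples, and the 2 comparisons share their control samples. The overlap of calls over all genes was not counted, so no link between the 2 sets can be read from these 5. The 8 others that fell were Col1a1, Col1a2, Col4a2, Col6a1, Col7a1, Col8a1, Col12a1 and Col17a1. Another 7 rose at 135 min of HS without a call at 405 min of Tu, and Col4a4, Col4a5, Col4a6, Col5a2, Col9a3 and Col18a1 were called in none of the 5 comparisons with the control. Col9a3 overlaps Tcfl5, and Col18a1 is listed with 2 sets of coordinates.

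Late tunicamycin was also compared with early tunicamycin directly, without the controls. At 405 against 45 min, 21 of the 28 members were lower and 1 was higher, against 28.1% and 24.4% of all genes (edgeR), and the members' median log2 fold change was -0.93 against -0.06. Col1a1 went from 1384, 1622 and 2178 RPKM to 708, 732 and 649 RPKM (log2 fold change -1.20, SE 0.18, edgeR adjusted p = 0.000833), and Col3a1 from 121, 184 and 188 RPKM to 54.8, 54.7 and 39.0 RPKM (log2 fold change -1.62, SE 0.20). No sample at 405 min reached the lowest at 45 min in either gene. Of the 3 members that had risen at 45 min, Col27a1 (log2 fold change -1.09, SE 0.14), Col28a1 (-1.18, SE 0.21) and Col22a1 (-0.65, SE 0.24) were all lower at 405 min, though the call of Col22a1 held in only 1 of the 6 fits that left out a sample. Col5a1, not called against the control, was lower here as well (-0.41, SE 0.15, edgeR adjusted p = 0.0479), likewise in only 1 of those fits. Col14a1 was the member that was higher (0.93, SE 0.30, edgeR adjusted p = 0.0274), in 2 of those 6 fits.

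Heat and tunicamycin were compared at matched times to see which members answered one stress more than the other. At 135 min, 0 of the 28 members differed by edgeR, against 1.3% of all genes higher and 0.817% lower under heat. At an unadjusted p under 0.05, 11 were higher under heat and 1 lower, against 10.2% of all genes higher, and DESeq2 called 5 higher, against 5.62%. The largest difference was that of Col15a1, with 41, 71 and 62 reads under heat and 13, 10 and 12 under Tu (log2 fold change 1.97, SE 0.43, edgeR adjusted p = 0.0682). Col27a1, in contrast, had 4.20, 5.66 and 4.24 RPKM under heat and 5.76, 4.65 and 5.42 RPKM under Tu, a log2 difference of -0.03 (SE 0.25). At 45 min, 0 members differed, against 0.0628% of all genes higher and 0.141% lower; 11 were higher and 0 lower at an unadjusted p under 0.05, against 14.4% of all genes higher, and DESeq2 called 6 higher, against 6.01%. Without HS 45 min replicate 3, edgeR called 22 higher, against 26.8% of all genes. Across all genes, the log2 difference between heat and Tu followed transcript GC content (Spearman correlation 0.54 at 45 min and 0.21 at 135 min). With the GC offset, the members' median log2 difference went from 0.65 to 0.19 at 45 min and from 0.56 to 0.44 at 135 min. The part of GC content in these differences was not tested.

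Chains that assemble into 1 molecule, or whose genes lie side by side, were set against each other by their ratio of RPKM in each sample, as a description without a test. The ratio of Col1a1 to Col1a2, whose protein chains join in a ratio of 2 to 1, was 1.35 ± 0.268 in the control, 1.92 ± 0.230 at 45 min of HS, 1.86 ± 0.141 at 135 min of Tu and 1.18 ± 0.181 at 405 min of Tu (SD, n = 3). The samples at 45 min of HS (1.75 to 2.18) lay above the controls (1.15 to 1.65), whereas those at 405 min of Tu (0.990 to 1.35) overlapped them. The ratio of Col4a1 to Col4a2, which are transcribed away from each other from starts a few bases apart, was 1.33 ± 0.110 in the control, 1.55 ± 0.143 at 135 min of HS and 1.01 ± 0.0409 at 405 min of Tu, where every sample was below every control. The ratio of Col6a1 to Col6a2 moved least, from 1.54 ± 0.0623 in the control to group means between 1.47 and 1.66. That of Col5a1 to Col5a2 was 0.879, 0.519 and 0.496 in the controls, 1.13, 1.14 and 1.004 at 135 min of HS and 0.437, 0.473 and 0.561 at 405 min of Tu. The heated samples lay above all controls, and control replicate 1 stood apart from the other two. That library also differed from them in its correlation with GC content (0.05 against -0.54 and -0.54). The transcripts of Col5a1 and Col5a2 had a GC content of 58.02% and 49.65%. The part of GC content in these ratios was not tested. The X-linked neighbours Col4a5 and Col4a6, a pair added after the data were seen, had a ratio of 1.54 ± 0.207 in the control and 1.97 ± 0.176 at 405 min of Tu (SD, n = 3).

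**Figure D4:**
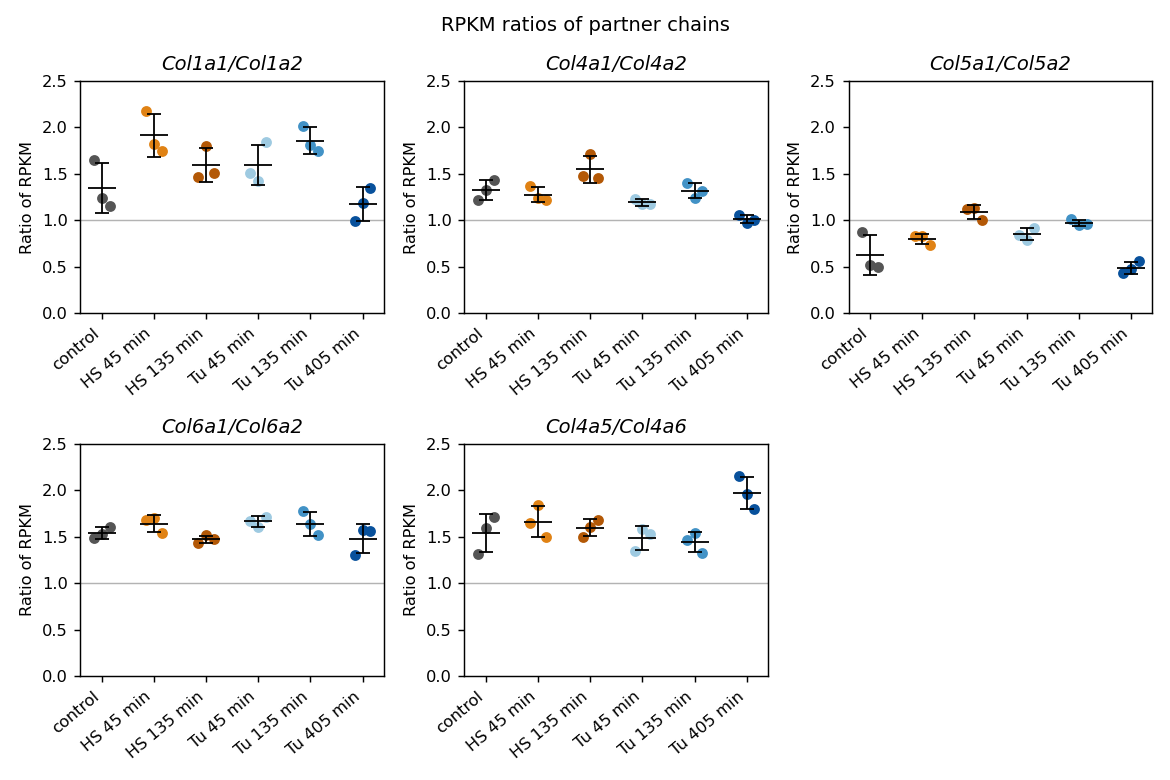
Ratio of RPKM of 5 pairs of collagen chains (vertical axis, 1 panel a pair) in the 6 groups (horizontal axis); points are samples, bars show the mean and SD of 3, and the grey line marks equal levels. At 405 min of Tu, the ratio of Col4a1 to Col4a2 fell to 0.976 to 1.06 from 1.22 to 1.44 in the control, while that of Col4a5 to Col4a6 lay at 1.80 to 2.15.

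The genes that modify, export, process and bind collagens were followed in 4 lists. Of the 16 tested modifying enzymes and chaperones, 3 rose and 0 fell at 135 min of HS, against 4.75% and 2.64% of all genes, and 5 rose and 3 fell at 405 min of Tu, against 23.3% and 23.5% (edgeR). Their median log2 fold change was 0.20 and -0.03 in turn, against -0.02 and -0.01 over all genes. The collagen chaperone Serpinh1 was higher in both, by 1.89 (SE 0.31, edgeR adjusted p = 0.0199) and 1.08 (SE 0.15, edgeR adjusted p = 0.00067) on the log2 scale. The prolyl 4-hydroxylase subunit P4ha2 rose at 135 min of HS (1.52, SE 0.27) and stood at 0.14 (SE 0.12) at 405 min of Tu. The reverse held for the peptidyl-prolyl isomerase Ppib, which stood at 0.26 (SE 0.21) at 135 min of HS and rose at 405 min of Tu (1.72, SE 0.17), and for the prolyl 3-hydroxylase Leprel1 (0.07, SE 0.31, and 1.55, SE 0.22). Leprel1 was scarce, with 20 reads on average in the controls. At 135 min of HS, the calls of Serpinh1 and P4ha2 held in 3 and 2 of the 6 fits that left out a sample. At 405 min of Tu, those of Serpinh1, Ppib and Leprel1 held in all 6.

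Of the 11 tested genes of procollagen export, 1 rose and 0 fell at 135 min of HS, against 4.75% and 2.64% of all genes. This was Creb3l1, an ER-anchored transcription factor known to act on collagen genes (1.77, SE 0.30, edgeR). Its call held in 3 of the 6 fits that left out a sample. At 405 min of Tu, 5 rose, 1 fell and 5 were not called, against 23.3% of all genes higher and 23.5% lower, and the list's median log2 fold change was 0.50. Ctage5, a component of ER exit sites for large cargo, was the largest (1.97, SE 0.14). It was also called higher at 45 min of Tu (0.83, SE 0.13, edgeR adjusted p = 0.0138), though in only 2 of the 6 fits that left out a sample. Creb3l2 (1.38, SE 0.17) and the COPII coat subunit Sec24d (1.296, SE 0.11) rose with it at 405 min, as did Creb3l1 (1.004, SE 0.13).

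Of the 10 tested genes of propeptide processing and crosslinking, 1 fell and 0 rose at 135 min of HS, against 2.64% and 4.75% of all genes. This was the lysyl oxidase family member Loxl2 (-1.80, SE 0.33, edgeR), whose call held in 3 of the 6 fits that left out a sample. At 405 min of Tu, 5 fell and 0 rose, against 23.5% and 23.3% of all genes, with a median log2 fold change of -0.62. Among those that fell were the procollagen C-proteinase relative Tll1 (-1.98, SE 0.31), Loxl3 (-1.37, SE 0.12) and the N-proteinase Adamts2 (-1.04, SE 0.24). Of the 12 tested receptors and enzymes of uptake and breakdown, 0 were called at 135 min of HS, against 4.75% of all genes higher and 2.64% lower. At 405 min of Tu, 4 rose and 4 fell, against 23.3% and 23.5% of all genes, with a median log2 fold change of -0.12. Those that rose included the gelatinase Mmp9 (1.37, SE 0.38) and the collagen-binding integrin chains Itga11 (1.303, SE 0.24) and Itga2 (1.28, SE 0.38), whereas their partner chain Itgb1 fell (-0.99, SE 0.18). Itga2 was scarce, with 28.7 reads on average in the controls. The calls of Itga2 and Mmp9 held in 3 and 4 of the 6 fits that left out a sample. At 45 min of HS no gene of the 4 lists was called by edgeR, and 0% of all genes were. At 135 min of Tu none was called either, against 0.126% of all genes higher and 0.00785% lower. At 45 min of Tu Ctage5 was the only 1, against 4.01% of all genes higher and 2.17% lower.

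**Figure D5:**
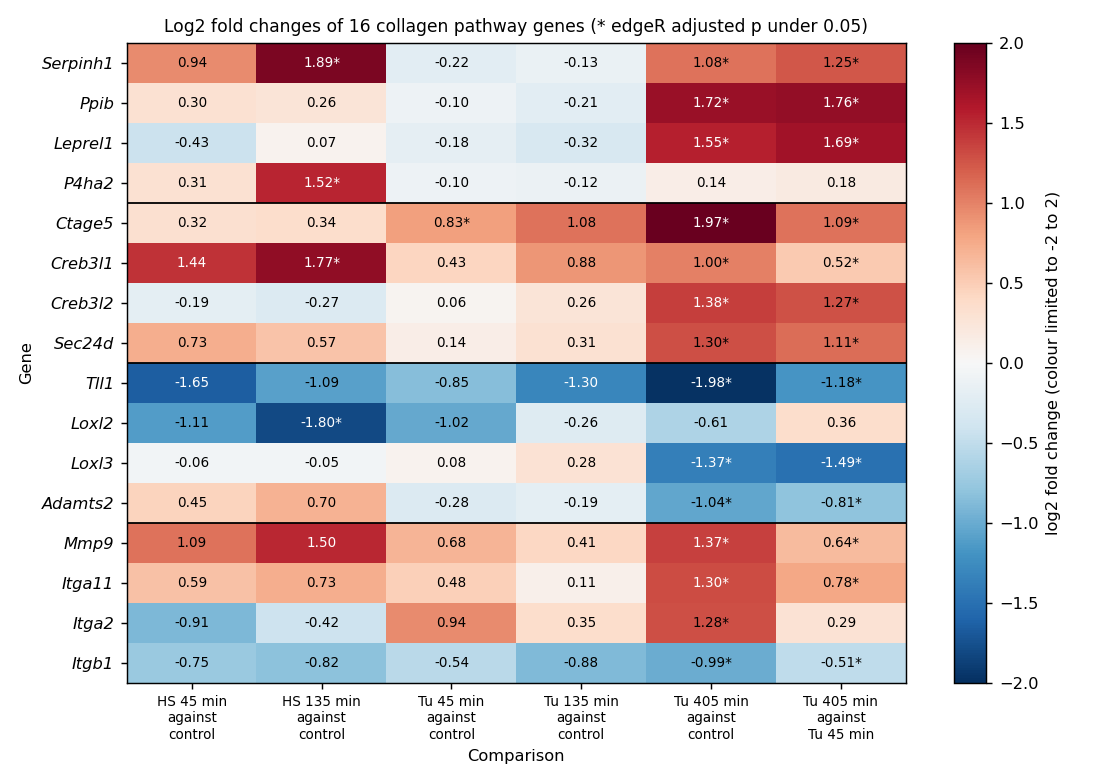
Log2 fold changes (colour and printed value) of 16 genes of the collagen pathway (rows, in 4 blocks from modifying enzymes and chaperones, through export and processing, to receptors and breakdown) in 6 comparisons (columns); stars mark an edgeR adjusted p under 0.05. At 405 min of Tu the 4 export genes stand between 1.004 and 1.97 and the processing genes Tll1, Loxl3 and Adamts2 between -1.98 and -1.04.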

How the data were processed

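Samples were grouped by the stress and time in their labels. Per the study's methods, poly(A) RNA reads were aligned to the mm9 assembly and assigned to RefSeq gene models on the DNAnexus platform by the authors; versions are not given in the sources used here. The authors' files hold, for every gene, an estimated count, not normalized and deposited with few significant digits, and an RPKM, which the authors scaled to gene length and library size. Of the low counts, 23.9% to 27.1% per sample were not whole. As deposited by the authors, the files also hold a score for each gene (its RPKM minus the library mean, over the SD) and a signal (its RPKM over the root mean square), both unused. The deposited counts were rounded to whole numbers. 6 samples of each of 8 comparisons were fitted with edgeR 4.0.16 (TMM, quasi-likelihood test) in R 4.3.3 over the 12731 genes that had reads in all 18 samples, with Benjamini-Hochberg adjusted p under 0.05 as a call, and checked on simulated data. The standard error came from the fold change and its F statistic.

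A level of 3 reads was 0.0451 to 0.0898 CPM, which covers counting error only. Counting is not stated to use strand. Replicates were compared by chi-square (15.5 to 857 per degree of freedom over 11616 genes), so no pair agreed within sampling noise. Alternatives were the DESeq2 1.42.0 Wald test, its size factors, total counts, no filter, a shared fit of the 6 groups, the replicate number as a block, an offset for transcript GC content (lowess, span 0.3; a value for 96.57% of genes), both together, and leaving out each sample. The main fits did not pair samples by replicate number. Deviations of same-numbered samples were each the best match for 135 min of Tu against the control only (correlations 0.29, 0.24 and 0.20). Members named with values are the 6 with the highest control RPKM, those called in at least 2 of the 5 comparisons with the control, and the 3 largest rises and falls in each with groups that do not overlap and at least 50 reads in the higher group; others named in passing were chosen after their values were seen. Pathway genes are up to 4 a list by size of change. The members and lists were chosen with earlier results of these data known. Python 3.11.15 was used for other steps. P3h4 and Mia3 were not analysed here.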

Additional observations from a re-analysis of the deposited data

Results flagged for a closer look

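The effect of tunicamycin on collagen genes differed between its times. In the direct comparison of 405 with 45 min, 21 of the 28 members were lower and 1 was higher, against 28.1% and 24.4% of all genes (edgeR quasi-likelihood test, adjusted p under 0.05). The log2 fold change was -1.20 for Col1a1, -0.73 for Col1a2, -1.62 for Col3a1, -1.07 for Col6a1 and -0.90 for Col6a2, each kept under the 6 fits that left out a sample. Groups of 3 are too small for a test of single samples that stand apart.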

How the results depend on the processing

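Counts of collagen genes called at 405 min of Tu (13 lower, 2 higher) changed least: 4 were higher with the GC offset, and leaving out samples gave 2 to 5 higher and 11 to 14 lower. Over all genes, the GC offset called 3376 higher, and leaving out samples gave 2014 to 4017 higher and 2053 to 3880 lower. The DESeq2 Wald test called 11 members higher at 45 min and 23 at 135 min of HS, 5 and 6 at 45 and 135 min of Tu, and 6 and 5 for heat against tunicamycin at 45 and 135 min. In these 6 comparisons it called 386, 1232, 972, 329, 748 and 715 of all genes higher in turn. The shared fit of 6 groups gave 16, 21, 3 and 3 members for the first 4 and 9 and 7 for the last 2. Of all genes it called 925, 1829, 423, 233, 719 and 998 higher in turn. The replicate block gave 0 for 135 min of HS and for 45 and 135 min of Tu, from 13, 3 and 1, and changed no other count of members called. In those comparisons it called 0, 21 and 0 of all genes higher, from 605, 510 and 16. The GC offset gave 20, 6 and 3 members higher for the same comparisons and 8 for heat against tunicamycin at 135 min. It called 1325, 1105, 185 and 851 of all genes higher in turn. With the block, the offset gave 0 at 135 min of Tu, both of members and of all genes. Total counts without TMM gave 5 members higher at 45 min of Tu, against 878 of all genes. The median of all genes was 0.10 there and -0.19 at 135 min of HS. For 405 against 45 min of Tu, higher members numbered 2 with DESeq2, its size factors, no filter, the GC offset and the offset with the block, and 0 with total counts (where the median of all genes was -0.21), and lower members numbered 13 in the shared fit. Of all genes, these settings called 3434, 3354, 3221, 3431, 3392 and 2285 higher in turn, and the shared fit called 1769 lower. Outside 135 min of Tu, same-numbered samples did not vary together. Whether a call lost under the block was a weaker effect was not tested. The cause of these shifts was not tested.

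Leaving out each sample gave 0 to 24 higher and 0 to 1 lower at 45 min of HS, 0 to 22 higher at 135 min of HS, 0 to 5 at 45 min and 0 to 1 at 135 min of Tu, 0 to 22 higher and 0 to 1 lower for heat against tunicamycin at 45 min, 0 to 3 higher at 135 min, and 0 to 2 higher and 16 to 23 lower for 405 against 45 min of Tu. Of all genes, these fits called 0 to 2737 higher at 45 min and 10 to 1535 at 135 min of HS. They called 55 to 1391 higher at 45 min and 0 to 49 at 135 min of Tu. For heat against tunicamycin they called 0 to 3416 higher at 45 min and 0 to 273 at 135 min. For 405 against 45 min of Tu they called 2349 to 3659 higher and 2678 to 3748 lower. All counts above 0 in the comparisons of 45 min of HS came without HS 45 min replicate 3, the 3 for heat against tunicamycin at 135 min came without HS 135 min replicate 1, and the 2 higher and 23 lower for 405 against 45 min of Tu came without Tu 45 min replicates 3 and 1. For 45 min of Tu against the control the count was 5 without control replicate 1, 1 without Tu 45 min replicate 3 and 0 without control replicate 2, control replicate 3 or Tu 45 min replicate 2; at 135 min of Tu it was 1 only without Tu 135 min replicate 1. Against the control at 45 min of Tu, the sign of 3 members near 0 turned: Col5a2 with total counts (0.0766) or with samples left out (-0.18 to 0.11), Col6a2 with DESeq2 or its size factors (-0.00812 in both) or with samples left out (-0.0664 to 0.15), and Col1a1 with samples left out (-0.14 to 0.35). At 135 min of Tu, Col6a2 turned with the GC offset (-0.0142) and with the offset and block (-0.0257). Ratios of counts in place of RPKM moved 10 of 24 group means of chain ratios, since chains differ in length.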
